A study of Mus musculus with 6 samples.

Results

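The 37 genes described here encode proteins of the splicing machinery: 10 SR proteins, 9 proteins that recognise splice sites within the U1 and U2 small nuclear ribonucleoproteins (snRNPs), 7 proteins of U5, the tri-snRNP and the Prp19 complex, 6 hnRNP proteins and 5 other splicing regulators. They were listed by name, with earlier results of these data known, out of 53458 genes summed from the transcript tables. All 37 passed the filter on low counts. RNA was sequenced from leukemic blasts of 6 mouse libraries in 2 groups of 3. The first group was Cebpa-/p30; Asxl1 G643W/G643W, and the second was Cebpa-/p30; Asxl1 WT, so that every library shared the Cebpa genotype, which leaves the short p30 form of the transcription factor C/EBPα as the product of a single allele, and the C57/BL6 strain. The blasts came from the bone marrow of transplanted leukemic mice and were sorted on CD45.2, with low staining for Mac1 and Gr1 and none for Ter119, B220 or CD3. The labels give no age, no transplant time and no origin of each leukemia, so the libraries of a group may share a leukemia, and the spread behind each p-value is that among these libraries, which may be partly technical. Libraries held 61167075 to 101189225 estimated reads. Asxl1, a chromatin regulator that works with Polycomb enzymes, was measured at 13.7, 20.2 and 15.5 TPM in the G643W libraries, against 6.95, 3.68 and 7.15 TPM in the WT libraries, with no overlap, and its log2 difference of 0.95 had an edgeR adjusted p of 0.454.

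The libraries differed within groups in their content of neutrophil transcripts, although the sort was meant to keep cells with low Gr1. The summed level of 19 neutrophil markers, none of them at 0 in every library, was 38824, 224955 and 144366 TPM in the G643W libraries, against 44670, 41265 and 92621 TPM in the WT libraries. Of the 19 markers 18 had higher estimates in G643W blasts, with a median log2 difference of 1.64. Of them 0 lay without overlap and 0 were called (2 higher at an unadjusted edgeR p under 0.05). Of 12 dendritic cell markers, 4 were called lower in G643W blasts and their summed level was 74.9 to 115.0 TPM in G643W libraries and 527 to 857 TPM in WT libraries. Of 12 monocyte markers 11 had lower estimates in G643W blasts, with a median log2 difference of -1.40, 4 without overlap and 0 called (6 lower at an unadjusted edgeR p under 0.05). Their summed level was 3658, 2708 and 3528 TPM in the G643W libraries, against 3362, 2371 and 4175.5 TPM in the WT libraries. Of 11 progenitor and blast markers 7 had positive and 4 negative estimates, with 0 called, and their summed level was 6109, 1437 and 3035 TPM in the G643W libraries, against 1389, 2949.8 and 4611 TPM in the WT libraries. Among them Kit was measured at 35.9, 4.44 and 5.11 TPM in the G643W libraries, against 2.12, 11.8 and 17.95 TPM in the WT libraries. B and T cell markers summed to at most 24.7 TPM in G643W libraries and 27.4 TPM in WT libraries, and erythroid markers to at most 51.9 TPM in G643W libraries and 12.7 TPM in WT libraries. For these counts of markers, the shares over all genes tested were 0.0678% called lower and 8.89% lower without overlap. An unadjusted edgeR p under 0.05 was found for 9.66% of all genes, in either direction. In bulk RNA, fewer cells of a type and less RNA per cell cannot be told apart.

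Splicing removes introns in ordered steps. U1 snRNP binds the donor site, U2AF and the SF3 proteins of U2 snRNP mark the branch point and acceptor site, and the tri-snRNP with Prp8 and the Prp19 complex then brings the assembly to its catalytic form. SR proteins mostly promote and hnRNP proteins often oppose the use of the exons they bind, and many genes of both families control their own level by splicing in an exon with an early stop codon, which sends the transcript to nonsense-mediated decay (NMD). In human myeloid neoplasms SF3B1, U2AF1, SRSF2, LUC7L2, PRPF8 and DDX41 are recurrently mutated, and mutations of ASXL1 are found beside some of them.

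The members spanned a wide range of expression. TPM is a level corrected for transcript length and library size, and the sum over the protein-coding transcripts of a gene is used here to set genes side by side, because short non-coding transcripts carried most of the whole-gene TPM of some of them. Of the 6 hnRNP genes 5 were the most abundant members by this measure, while Hnrnpu ranked 28 of 37. Hnrnpa2b1, which binds nascent RNA and guides exon choice, had 366, 313 and 337 TPM in the G643W libraries, against 323, 406 and 346 TPM in the WT libraries. The poly(C)-binding Hnrnpk followed with 246, 209 and 252 TPM in the G643W libraries, against 204, 246 and 255 TPM in the WT libraries. At the low end stood Prpf4, a U4/U6 snRNP protein, with 3.69, 1.98 and 2.60 TPM in the G643W libraries, against 2.62, 3.29 and 3.57 TPM in the WT libraries. For Hnrnpa2b1, Hnrnpk and Prpf4 alike the 2 genotypes overlapped, and the plot of levels shows the same for most members.

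**Figure D1:**
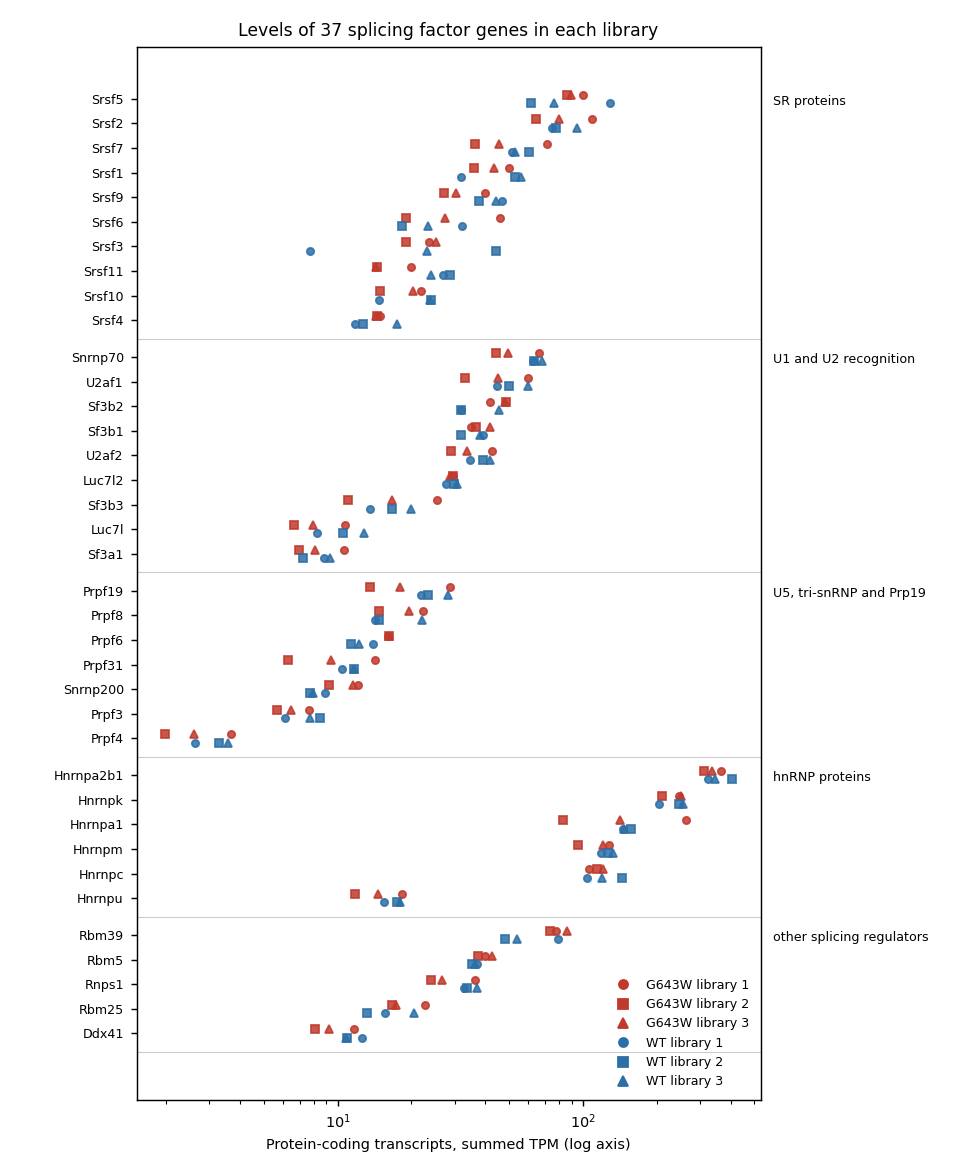
Summed TPM of the protein-coding transcripts of each of the 37 splicing factor genes (log axis), ordered by level within 5 role groups; red marks are the 3 G643W libraries, placed above, and blue marks the 3 WT libraries. Levels ran from 1.98 TPM for Prpf4 in G643W library 2 to 406 TPM for Hnrnpa2b1 in WT library 2, and the 2 colours overlap in most rows.

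No splicing factor gene changed between the genotypes by the test. Estimated counts were compared with edgeR's quasi-likelihood test over 20654 genes and p-values were adjusted by the Benjamini-Hochberg method. None of the 37 members passed an adjusted p of 0.05, where 0.121% of all genes tested did (0.0533% higher and 0.0678% lower in G643W blasts). The lowest adjusted p of a member was 0.487, and DESeq2 also called 0, with 1 at an unadjusted p under 0.05. By edgeR 2 of 37 members, Srsf9 and Srsf11, had an unadjusted p under 0.05, beside 9.66% of all genes. The log2 differences of G643W minus WT ran from -0.64 to 0.32. They were negative for 26 members and positive for 11, while 50.8% of all genes were negative. The median was -0.16 for the members and -0.01 for all genes tested. That median lay between -0.26 and -0.03 when any 1 library was left out (-0.03 without WT library 2), and was -0.04 by limma on log2(TPM + 1) and -0.08 with protein-coding genes alone. Counting protein-coding transcripts alone put 3 members at an unadjusted edgeR p under 0.05 (Srsf9, Srsf11 and Snrnp200), called 0, and turned the sign of 5 (Srsf5, Sf3a1, Sf3b1, Sf3b3 and Rbm5).

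The members were also measured more tightly than most genes. Their median standard error was 0.23 on the log2 scale, against 0.47 over all genes tested. For 33 of 37 members the 95% interval of the difference lay within 1 log2 unit of 0, so a change of more than 2-fold is outside those intervals, and 35 of 37 estimates lay within 0.5. The intervals do not show that levels were equal, since smaller differences fall inside them. Read counts scaled to library size (CPM) in the 3 G643W libraries lay wholly below those of the 3 WT libraries for 3 members, Srsf9, Srsf11 and Hnrnpm, where 8.89% of all genes did so. They lay wholly above for 1 member, Snrnp200, where 7.05% of all genes did so, and the 4 members together compare with 15.9% of all genes.

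**Figure D2:**
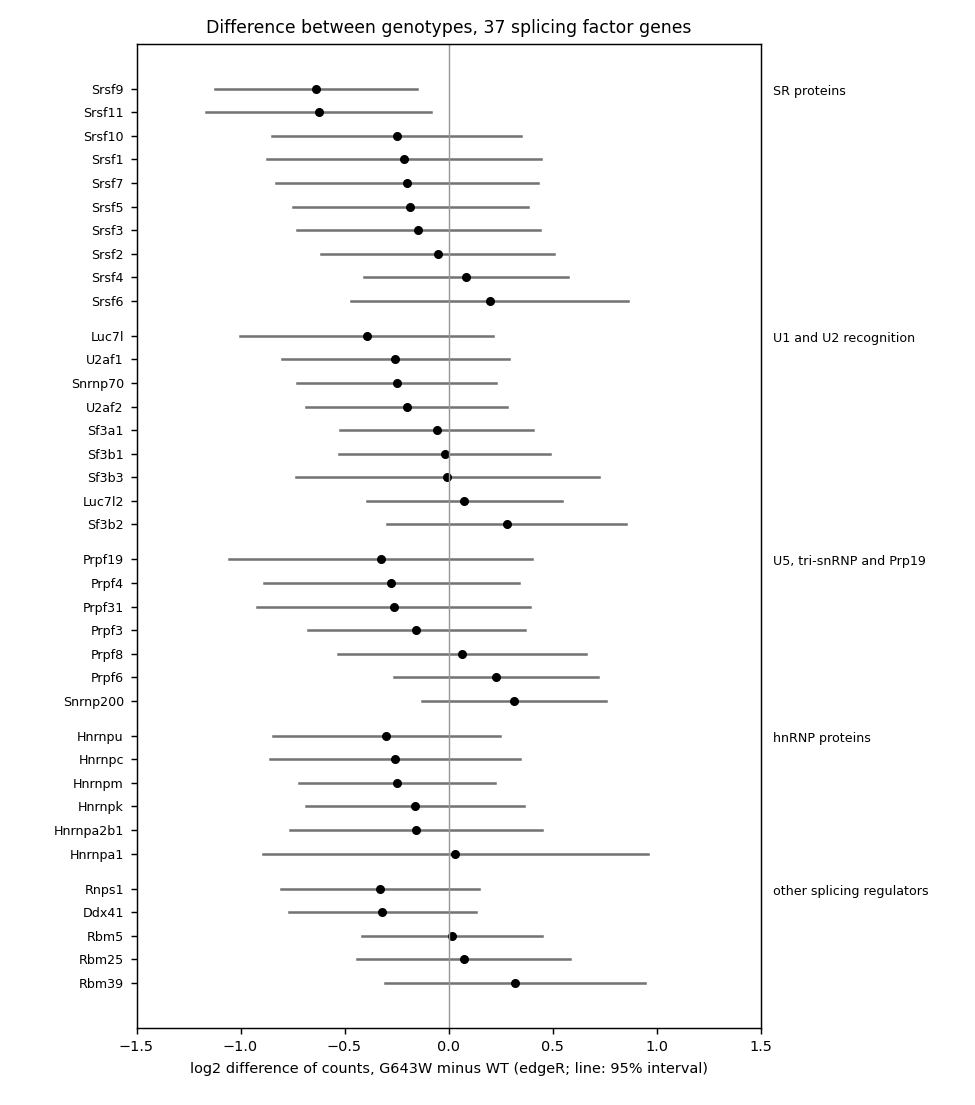
Log2 difference of counts, G643W minus WT, for each of the 37 genes by edgeR (points) with its 95% interval (lines), ordered within role groups. The points run from -0.64 for Srsf9 to 0.32 for Rbm39, and only the intervals of Srsf9 and Srsf11 leave out 0, before adjustment over all genes.

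The members tended to be low in the same libraries. G643W library 2 had the lowest CPM of the 6 libraries in 19 of 37 members, where it was lowest in 25.1% of all genes tested. WT library 1 was lowest in another 11, where it was lowest in 18.2% of all genes. On the log2 scale and relative to each gene's own mean, the members averaged 0.12, -0.22 and -0.09 in the G643W libraries, against -0.04, 0.13 and 0.10 in the WT libraries. The 19 neutrophil markers, on the same relative scale, averaged -1.68, 2.56 and 1.89 in the G643W libraries, against -2.63, -1.27 and 1.13 in the WT libraries. The 11 progenitor and blast markers averaged 0.54, -0.74 and -0.0019 in the G643W libraries, against -0.65, 0.26 and 0.59 in the WT libraries. G643W library 2 had the lowest mean of the members, the highest of the neutrophil markers and the lowest of the blast markers, while WT library 1 had the lowest mean of the neutrophil markers and the second lowest of the blast markers. With the neutrophil marker mean as a covariate the members' median difference was -0.10, and 1 member had an unadjusted p under 0.05. The part of these cell types in the differences was otherwise not tested.

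Among the SR proteins, which carry arginine-serine repeats and bind exonic enhancers, 8 of 10 had lower estimates in G643W blasts and none was called. The median difference was -0.19. Srsf9 (chr5:115327177-115333080, plus strand), an SR protein that acts on exon choice and translation, was measured at 40.5, 27.7 and 31.7 TPM in the G643W libraries, against 51.02, 40.2 and 45.6 TPM in the WT libraries. Only the highest G643W library reached the WT range of this gene. Its log2 difference was -0.64 ± 0.21 (SE, 3 libraries each), with an edgeR p of 0.017 and an adjusted p of 0.487. Srsf11 (chr3:158010473-158036639, minus strand), an SR-related protein that binds near acceptor sites, was measured at 72.9, 47.98 and 65.3 TPM in the G643W libraries, against 100.2, 80.4 and 79.99 TPM in the WT libraries. All 3 G643W libraries were below all 3 WT libraries. Its log2 difference was -0.62 ± 0.23 (SE), with an edgeR p of 0.029 and an adjusted p of 0.497. Counted on protein-coding transcripts alone the difference was -0.51 ± 0.20 (SE) for Srsf9, with an edgeR adjusted p of 0.478, and -0.70 ± 0.19 (SE) for Srsf11, with an edgeR adjusted p of 0.435.

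The remaining SR genes had 95% intervals that held 0. The highest estimate belonged to Srsf6, a regulator of alternative exons, at 74.4, 36.6 and 52.1 TPM in the G643W libraries, against 56.3, 37.1 and 40.2 TPM in the WT libraries. Its groups overlapped widely, with G643W library 1 the highest of all, and the log2 difference was 0.20 ± 0.28 (SE). Srsf4, another SR protein whose gene holds an early-stop exon, differed by 0.09 ± 0.21 (SE) at 22.1, 21.8 and 22.9 TPM in the G643W libraries, against 16.7, 16.3 and 24.4 TPM in the WT libraries. The sign of its difference turned to -0.04 without WT library 1 and to -0.04 with the neutrophil covariate. Srsf1, Srsf2, Srsf3, Srsf5, Srsf7 and Srsf10 lay between -0.25 and -0.05. This set holds the founding SR protein Srsf1 and Srsf2, the SR gene mutated in myeloid disease.

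Proteins that recognise splice sites with U1 and U2 snRNP had 7 negative and 2 positive estimates, with a median of -0.06. Snrnp70, the U1 protein that contacts the U1 RNA, had 443, 294 and 399 TPM in the G643W libraries, against 395, 422 and 456 TPM in the WT libraries. G643W library 2 was the lowest and the other libraries overlapped, and the log2 difference was -0.25 ± 0.20 (SE). The protein-coding transcripts of Snrnp70 alone gave 66.5, 44.1 and 49.6 TPM in the G643W libraries, against 62.6, 63.0 and 68.0 TPM in the WT libraries. By that measure G643W library 1 lay within the WT range and G643W libraries 2 and 3 below it. Luc7l, a U1-associated protein that helps choose donor sites, had 19.2, 9.98 and 14.5 TPM in the G643W libraries, against 15.1, 18.1 and 21.2 TPM in the WT libraries. Its estimate was the lowest of this group at -0.39 ± 0.26 (SE), with overlapping libraries. Its paralog Luc7l2, also a U1-associated protein, had 59.2, 59.8 and 68.1 TPM in the G643W libraries, against 55.5, 55.6 and 54.2 TPM in the WT libraries. Whole-gene TPM of Luc7l2 did not overlap between groups, while its counts did. On counts, the log2 difference of Luc7l2 was 0.08 ± 0.20 (SE), and -0.0059 with the neutrophil covariate. Its protein-coding transcripts alone gave 29.7, 29.7 and 28.7 TPM in the G643W libraries, against 27.6, 29.8 and 30.6 TPM in the WT libraries. The protein-coding level of Luc7l2 overlapped between groups.

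The U2 side showed no called change either. Sf3b2, a subunit of the SF3b complex of U2 snRNP, had the highest estimate of the group at 0.28 ± 0.24 (SE), with 41.7, 48.8 and 47.99 TPM in the G643W libraries, against 31.9, 31.8 and 45.5 TPM in the WT libraries. WT library 3 lay within the G643W range. Sf3b1, the SF3b scaffold that holds the branch-point adenosine, had 51.6, 53.9 and 73.2 TPM in the G643W libraries, against 63.6, 44.9 and 57.98 TPM in the WT libraries. Its log2 difference was -0.02 ± 0.21 (SE) with a 95% interval from -0.52 to 0.49. U2af1, which reads the AG of the acceptor site, differed by -0.26 ± 0.23 (SE), and its partner U2af2, which binds the polypyrimidine tract, by -0.20 ± 0.20 (SE). Sf3a1 and Sf3b3 were at -0.06 and -0.01.

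In the group of U5, tri-snRNP and Prp19 proteins, 3 estimates were positive and 4 negative, with a median of -0.15. Snrnp200, the helicase that unwinds U4 from U6, had CPM that were higher in all 3 G643W libraries, but TPM that overlapped, at 18.8, 14.8 and 20.2 TPM in the G643W libraries, against 19.7, 15.2 and 11.2 TPM in the WT libraries. Its log2 difference on counts was 0.31 ± 0.19 (SE), with an edgeR adjusted p of 0.568. Counted on protein-coding transcripts alone it was 0.43 ± 0.18 (SE), with an edgeR adjusted p of 0.480. Prpf6, the protein that bridges U5 and U4/U6, had 16.5, 16.5 and 16.5 TPM in the G643W libraries, against 14.05, 11.5 and 12.3 TPM in the WT libraries. The G643W libraries were nearly level and all above the WT libraries on TPM, whereas CPM overlapped, and the log2 difference on counts was 0.23 ± 0.21 (SE). Prpf8, the core of the catalytic centre, differed by 0.07 ± 0.25 (SE).

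The other tri-snRNP members leaned lower without passing the test. Prpf19, the ubiquitin ligase of the Prp19 complex, had 382, 149 and 232 TPM in the G643W libraries, against 216, 297 and 287 TPM in the WT libraries. These values varied 2.56-fold between libraries, with G643W libraries at both ends, and the log2 difference was -0.33 ± 0.31 (SE). About 85.6% of the whole-gene TPM of Prpf19 sat on 1 short retained-intron transcript of 260 bases, so its protein-coding TPM were lower by a large factor, at 28.7, 13.5 and 17.98 TPM in the G643W libraries, against 21.8, 23.5 and 28.1 TPM in the WT libraries. Prpf4 differed by -0.27 ± 0.26 (SE), Prpf31 by -0.26 ± 0.28 (SE) and Prpf3 by -0.15 ± 0.22 (SE).

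The hnRNP genes gave 5 negative estimates of 6 and a median of -0.21. Hnrnpm, which binds GU-rich intronic sites, had 136, 102 and 129 TPM in the G643W libraries, against 124, 133 and 140.3 TPM in the WT libraries. Its CPM were lower in all 3 G643W libraries, its TPM overlapped, and the log2 difference was -0.25 ± 0.20 (SE) with an edgeR adjusted p of 0.642. Hnrnpu, a nuclear scaffold protein, had 271, 185 and 235 TPM in the G643W libraries, against 229, 231 and 234 TPM in the WT libraries. G643W library 1 was the highest and G643W library 2 the lowest, and the log2 difference was -0.30 ± 0.23 (SE). The protein-coding transcripts of Hnrnpu alone gave 18.3, 11.7 and 14.6 TPM in the G643W libraries, against 15.4, 17.5 and 18.0 TPM in the WT libraries. Hnrnpa1, an antagonist of SR proteins, had 365, 113 and 188 TPM in the G643W libraries, against 201, 194 and 214 TPM in the WT libraries. It varied 3.22-fold between libraries, the most of all 37 members, and both ends were G643W libraries.

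Hnrnpa1 also had the widest interval of the hnRNP genes. Its log2 difference of 0.03 ± 0.39 (SE) turned to -0.40 without G643W library 1, to -0.01 without WT library 1 and to -0.03 by limma on log2(TPM + 1). Hnrnpa2b1 had a whole-gene level of 641, 508 and 589 TPM in the G643W libraries, against 555, 711 and 568 TPM in the WT libraries, and a log2 difference of -0.16 ± 0.26 (SE). Without WT library 2 its difference was 0.06. Hnrnpk, with 545, 468 and 586 TPM in the G643W libraries, against 472, 577 and 594 TPM in the WT libraries, differed by -0.16 ± 0.22 (SE), and Hnrnpc, which guards against the use of Alu repeats as exons in human cells, by -0.26 ± 0.25 (SE).

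Of the other splicing regulators 3 were positive and 2 negative, with a median of 0.02. Rbm39, a U2AF-related coactivator, had 156, 132 and 169 TPM in the G643W libraries, against 160.3, 73.6 and 84.4 TPM in the WT libraries. WT library 1 lay among the G643W libraries and the other 2 WT libraries below them, and the log2 difference was 0.32 ± 0.26 (SE). Rbm25, which acts on donor site choice, had 63.7, 51.2 and 71.7 TPM in the G643W libraries, against 41.4, 42.9 and 62.6 TPM in the WT libraries, with a difference of 0.07 ± 0.22 (SE) that turned to -0.01 without WT library 1. Ddx41, a DEAD-box helicase whose human gene carries germline and somatic mutations in myeloid disease, had 15.4, 10.6 and 12.4 TPM in the G643W libraries, against 15.99, 13.1 and 13.3 TPM in the WT libraries. Its difference was -0.32 ± 0.19 (SE), with overlap between groups. Rbm5, a regulator of exon skipping in apoptosis genes, stood at 0.02 ± 0.18 (SE), and at -0.38 ± 0.19 (SE) on protein-coding transcripts alone, with an edgeR adjusted p of 0.498.

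Rnps1 has a nearly identical copy, which held reads in the G643W libraries and none in the WT libraries. Rnps1 (chr17:24414565-24425901, plus strand) encodes an RNA-binding protein of the exon junction complex that links splicing to NMD. Its annotated processed pseudogene Gm9825 lies at chr6:7982541-7983383 on the minus strand, in GRCm38 coordinates, and has no introns. Gm9825 matches Rnps1 over 843 bases of coding sequence with 838 identical bases, 5 mismatches and no gap, which is 99.4% identity, and runs across 5 exon junctions of Rnps1. Within the 843 aligned bases, the 5 mismatches are the positions at which reads from the 2 can be told apart. The Rnps1 transcripts, of 1646 to 1920 bases, also hold sequence that the copy lacks. The surroundings of the 5 mismatches are shown, from the GENCODE M21 transcripts. Positions count from the A of the start codon of Rnps1, the Rnps1 base comes first, and the differing base is in capitals.
C174A in Rnps1: taggtccagctcCacctccagctcg
C174A in Gm9825: taggtccagctcAacctccagctcg
C263T in Rnps1: gaagctccagcaCgtcccggagctc
C263T in Gm9825: gaagctccagcaTgtcccggagctc
T492C in Rnps1: ttacgggaaaatTaaaatgattgac
T492C in Gm9825: ttacgggaaaatCaaaatgattgac
T513C in Rnps1: tgacatgcctgtTgagaggatgcat
T513C in Gm9825: tgacatgcctgtCgagaggatgcat
C687T in Rnps1: gcgattcagcccCcctaggaggatg
C687T in Gm9825: gcgattcagcccTcctaggaggatg

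Gm9825 held estimated reads in every G643W library and in no WT library. It had 1337, 1196 and 1090 reads in the G643W libraries, against 0, 0 and 0 in the WT libraries. The mean was 15.9 ± 3.23 CPM in G643W blasts (SD, 3 libraries), at least 391.5-fold higher than a floor of 3 reads in each WT library. Gm9825 was 1 of the 25 genes called in the whole comparison, with an edgeR adjusted p of 0.0209. Leaving out G643W library 2, G643W library 3, WT library 1 or WT library 2 raised its edgeR adjusted p to 0.0962, 0.147, 0.0539 or 0.0876, while the reads in WT libraries are 0 in each case. The floor covers counting error only.

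The reads of Rnps1 itself were 7290, 7222 and 5842 in the G643W libraries, against 7861, 8198 and 8692 in the WT libraries. Rnps1 had 36.2, 24.1 and 26.5 TPM in the G643W libraries, against 32.7, 33.6 and 37.03 TPM in the WT libraries. G643W library 1 lay within the WT range and the other 2 below it. Its own log2 difference was -0.33 ± 0.20 (SE), the most negative outside the SR and U1 proteins. Summed with Gm9825 the difference was -0.09, with 104.7 ± 18.6 CPM in G643W blasts and 111.6 ± 7.17 CPM in WT blasts (SD, 3 libraries each). The copy held 15.5%, 14.2% and 15.7% of the joint reads in the G643W libraries and 0% in each WT library. The Rnps1 estimate therefore depends on how reads are divided between gene and copy, and the alleles of the copy in these mice were not tested.

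**Figure D3:**
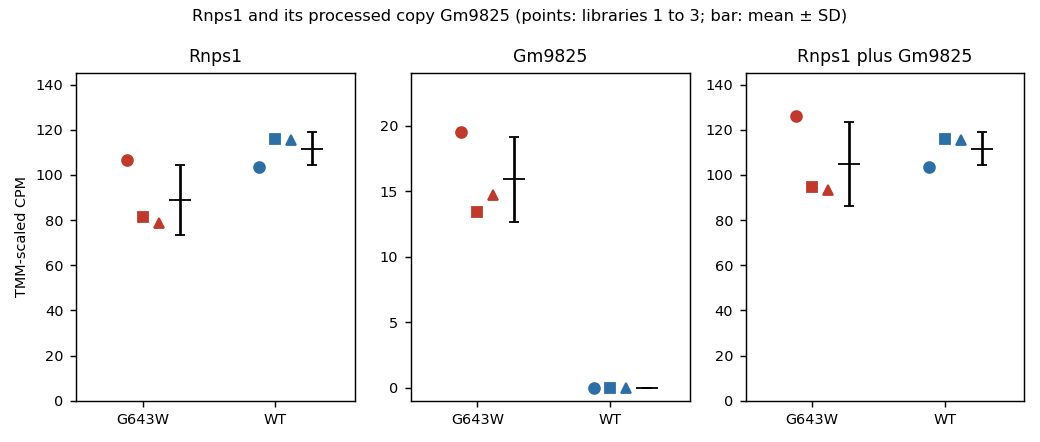
TMM-scaled CPM of Rnps1, of its processed copy Gm9825 and of both summed, with each library as a point (circle, square and triangle for libraries 1, 2 and 3; G643W red, WT blue) and the mean ± SD as a bar. Gm9825 is at 13.4 to 19.5 CPM in the G643W libraries and at 0 in the WT libraries, and the summed values of the 2 genotypes overlap.

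A search for other near-identical copies found them for 9 of 37 members, 25 copies in all. For Srsf3 the copies held 6.25% to 7.54% of the joint reads and for Hnrnpa1 7.74% to 8.54%, over the 6 libraries. For the remaining 6 genes with copies the share stayed at or under 0.58%. Among the other spliceosome genes listed, 35 had 136 matches by the same rule, where an entry that matched several genes was counted for each. Not all were copies of a whole gene. Those of Hnrnpab and most of those of Sap18 were short annotated miRNA genes, and those of Txnl4a were of the type misc_RNA. The matches held over 5% of the joint reads in at least 1 library for 9 genes. For 5 of those, Sap18, Snrpf, Snrpg, Hnrnpa3 and Lsm7, the share was between 41.5% and 60.5% in the 6 libraries. Summing every member with its copies left 0 members called and 2 at an unadjusted p under 0.05.

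The wider machinery gave much the same picture. In 5 lists of other spliceosome and regulator genes, 161 of 162 genes were measured and none was called. Of these genes 2 were higher and 4 lower at an unadjusted edgeR p under 0.05, beside 9.66% of all genes tested in either direction. The median log2 difference of the 161 genes was -0.06, with 56 positive and 105 negative. Ptbp2, a repressor of neuronal exons, averaged 23.1 ± 1.04 TPM in G643W blasts and 13.9 ± 0.868 TPM in WT blasts (SD, 3 libraries each). Its libraries did not overlap, and the log2 difference on counts was 0.64 ± 0.18 (SE), with an edgeR adjusted p of 0.454. Mbnl3, a muscleblind-like splicing regulator, had 8.47, 10.4 and 9.36 TPM in the G643W libraries, against 1.91, 3.88 and 0.25 TPM in the WT libraries, with a difference of 1.92 ± 0.75 (SE) and an edgeR adjusted p of 0.503. The Sm protein gene Snrpf, a part of the ring around snRNAs, had 40.8, 12.9 and 21.5 TPM in the G643W libraries, against 40.7, 47.02 and 46.8 TPM in the WT libraries, at -0.96 ± 0.39 (SE) and an edgeR adjusted p of 0.506. For Snrpf, G643W library 1 was close to WT library 1 and the other 2 G643W libraries were below every WT library. The copy of Snrpf held 49.5% to 56.4% of the joint reads, and the log2 ratio of mean CPM summed with it was -0.81.

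The lists kept apart had medians near 0. The median was -0.11 for 30 Sm, U1 and U2 proteins, -0.09 for 42 tri-snRNP and catalytic step proteins, -0.02 for 26 SR kinases and SR-related proteins, -0.05 for 47 other hnRNP proteins and regulators, and 0.13 for 16 proteins of the exon junction complex and NMD. By the lowest p of each direction, the first list was led by Puf60, a U2AF-related protein, at 0.25 ± 0.24 (SE) beside Snrpf. The second was led by the catalytic-step protein Crnkl1 at 0.50 ± 0.22 (SE) and the cyclophilin Ppie at -0.91 ± 0.37 (SE). The SR kinase Srpk2 was at 0.74 ± 0.37 (SE) and the SR-related Tra2b at -0.46 ± 0.24 (SE). Hnrnpa0 was at -0.74 ± 0.26 (SE), the NMD factor Upf3b at 0.41 ± 0.22 (SE) and the exon junction protein Magoh at -0.41 ± 0.26 (SE). For comparison, a list of 20 genes of G2 and mitosis had a median of 1.03 with 20 positive estimates. Of these, 16 lay higher without overlap, where 7.05% of all genes tested did. At an unadjusted edgeR p under 0.05 were 18, where 9.66% of all genes were, and 0 were called, where 0.121% were.

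Splicing factor genes carried more reads on NMD and retained-intron transcripts than other protein-coding genes did in each of the 6 libraries, which is a description with no test. The annotation sorts transcripts into protein-coding, NMD, retained-intron and other classes. By estimated reads, NMD transcripts made up 11.3%, 11.5% and 11.2% of the members' reads in the G643W libraries, against 11.2%, 10.1% and 12.2% in the WT libraries. Retained-intron transcripts made up 14.3%, 12.9% and 14.8% in the G643W libraries, against 15.5%, 14.7% and 12.7% in the WT libraries. Neither class separated the genotypes. In all other protein-coding genes NMD transcripts held 3.36% to 3.83% of reads and retained-intron transcripts 5.54% to 6.78% in the 6 libraries. These shares were below those of the pooled members in every library. In the other spliceosome lists NMD transcripts held 6.07% to 7.30% of reads and retained-intron transcripts 6.46% to 7.44%. NMD transcripts were most used by the hnRNP genes, at 16.2% to 18.7% of reads in G643W libraries and 15.2% to 20.4% in WT libraries, and least by U5, tri-snRNP and Prp19 genes, at most 0.34%. Retained-intron transcripts held 3.51% to 5.16% of the reads of U5, tri-snRNP and Prp19 genes. By reads, this group lay below other protein-coding genes for both classes. By TPM, retained-intron transcripts instead held 64.3% to 73.4% of this group, against 10.1% to 12.7% of other protein-coding genes, in the 6 libraries.

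**Figure D4:**
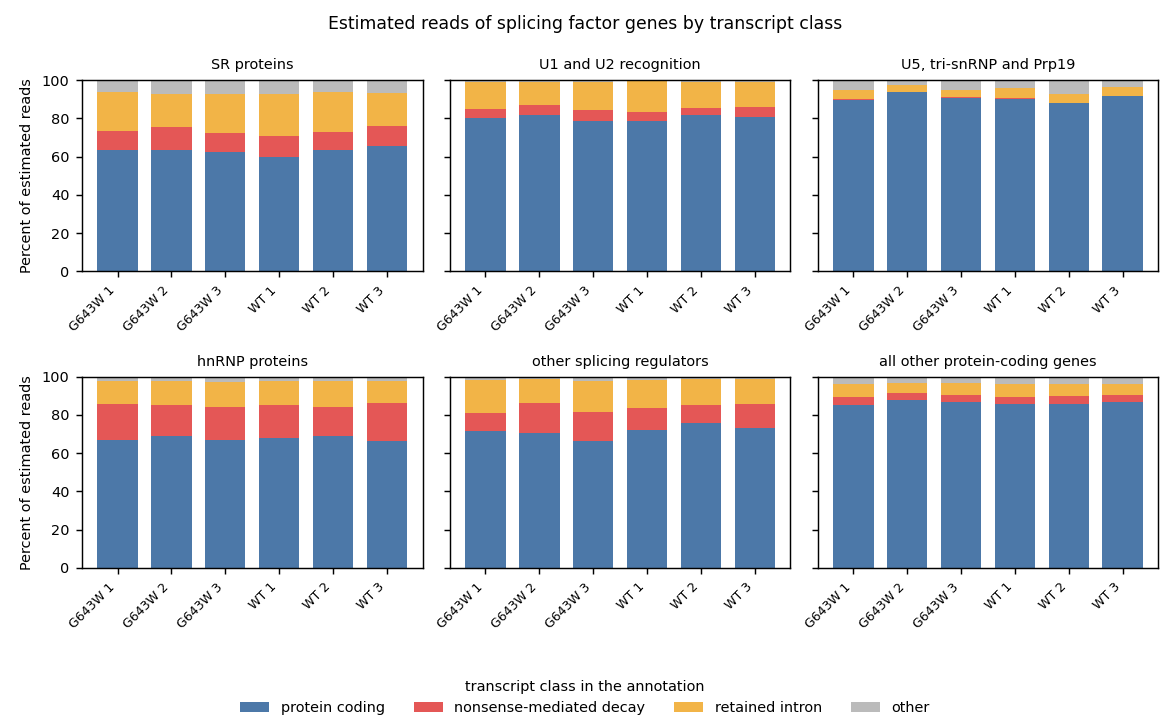
Percent of estimated reads on protein-coding, nonsense-mediated decay, retained-intron and other transcripts, for the 5 role groups and for all other protein-coding genes, with 1 bar per library (3 G643W bars left, 3 WT bars right). The bars differ between gene groups, such as 16.2% to 18.7% of reads on decay transcripts of hnRNP genes in G643W libraries, and little between genotypes.

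The early stop codons behind these transcripts could be read from the annotation. Annotated NMD transcripts with a stop codon numbered 49 in 22 of the 37 genes, and all 49 had an exon junction after the stop. In 22 of the 49 the stop lay in an exon absent from the gene's main coding transcript, the one with the most reads, and in 6 the stop was the same as in that transcript, with a junction after it. To show where the reading frame of each ends, the 45 coding bases before the stop are given with the stop codon in capitals, 5′ to 3′, from the GENCODE M21 transcripts, first for transcripts with their own stop exon and then, for Srsf2 and Hnrnpa1, for transcripts with the normal stop.
Srsf3-201: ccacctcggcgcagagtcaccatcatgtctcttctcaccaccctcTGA
Srsf4-204: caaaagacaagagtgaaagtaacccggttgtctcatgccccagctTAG
Srsf6-201: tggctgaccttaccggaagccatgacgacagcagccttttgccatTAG
Srsf11-210: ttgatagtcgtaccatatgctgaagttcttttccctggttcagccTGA
U2af2-204: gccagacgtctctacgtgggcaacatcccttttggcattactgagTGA
Sf3b1-208: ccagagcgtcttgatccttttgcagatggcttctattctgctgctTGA
Srsf2-204: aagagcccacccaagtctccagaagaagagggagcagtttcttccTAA
Hnrnpa1-203: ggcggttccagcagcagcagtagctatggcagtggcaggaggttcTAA

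Coordinates are GRCm38. The stop exon of Srsf3-201 has 456 bases (chr17:29039454-29039909) and of the gene's TPM the transcript held 6.87, 8.37 and 6.80% in the G643W libraries, against 8.99, 5.89 and 7.36% in the WT libraries. Srsf3 is an SR protein known to add this exon to its own transcript, and its 6 libraries lay close together. The stop exon of Srsf6-201 has 268 bases (chr2:162932815-162933082) and the transcript held 30.2, 39.3 and 36.1% in the G643W libraries, against 34.8, 40.3 and 33.7% in the WT libraries. That of Srsf4-204 has 188 bases (chr4:131884295-131884482) and the transcript held 23.7, 22.02 and 25.7% in the G643W libraries, against 18.5, 14.8 and 20.8% in the WT libraries. The libraries overlapped for Srsf6-201, while Srsf4-204 was higher in every G643W library, with an edgeR adjusted p of 1.00 for transcript usage of Srsf4. Srsf2-204, whose stop is the normal one with 2 junctions after it, held of Srsf2 TPM 47.4, 52.6 and 45.6% in the G643W libraries, against 49.01, 50.3 and 48.8% in the WT libraries. The form of Srsf2 annotated for decay thus held a large share in every library, with overlap between groups. TPM shares favour short transcripts, and a share of TPM is therefore higher than the same transcript's share of reads where the transcript is short.

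**Figure D5:**
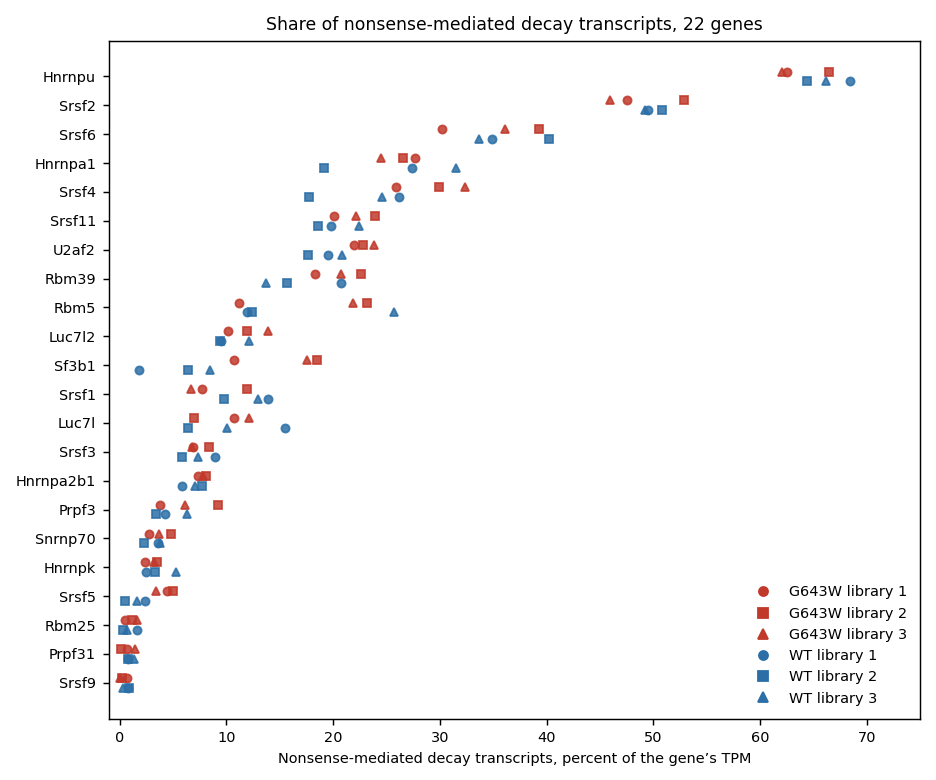
Percent of each gene's TPM on transcripts annotated for nonsense-mediated decay, for the 22 splicing factor genes that have one, ordered by mean; red marks are G643W libraries, placed above, and blue marks WT libraries. Sf3b1 lies at 10.7% to 18.5% in G643W libraries and at 1.79% to 8.44% in WT libraries, and most other genes overlap.

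No member changed its transcript use by the test. Differential usage within genes was tested with edgeR on transcript counts for 35 members, of which 0 were called, where 1.54% of 10196 genes were. Among members, Srsf5 alone had an unadjusted edgeR p under 0.05, of 0.0203 with an adjusted p of 0.551, beside 5.4% of genes. Class use was tested for 33 members, of which 0 were called, where 0.467% of 8138 genes were. Sf3b1 and Luc7l2 had unadjusted edgeR p-values of 0.0124 and 0.0383 with adjusted p-values of 0.644 and 1.00, where 4.46% of genes passed an unadjusted 0.05. Leaving out 1 library gave 1 or 2 called members for transcript use without G643W library 2 (Luc7l2), G643W library 3 (Snrnp70), WT library 1 (Srsf5 and Luc7l) or WT library 2 (Ddx41). For class use it gave 1 without WT library 1 (Luc7l). Over all genes, leaving out 1 library called 174 to 319 for transcript use and 44 to 66 for class use.

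Sf3b1 had the lowest p for class use. Its only NMD transcript, Sf3b1-208, carries a 56-base stop exon (chr1:55014869-55014924) within the gene (chr1:54985169-55027481, minus strand) that the main coding transcript lacks, and is 600 bases long. Of Sf3b1 TPM it held 10.7, 18.5 and 17.6% in the G643W libraries, against 1.79, 6.42 and 8.44% in the WT libraries. Every G643W library was above every WT library. The share of NMD transcripts did not overlap and was higher in G643W libraries for 3 of 22 members (Sf3b1, Srsf5 and U2af2), where 7.64% of 3089 genes did so, and lower for 0, where 4.99% did so (12.6% in either direction). An exact two-sided permutation test of the Sf3b1 share gave p = 0.10, the smallest that 3 against 3 libraries allow. Any share without overlap gives this p, so the test adds nothing to the separation. The reads behind the Sf3b1 share were few for the gene, with 265, 726 and 693 in the G643W libraries, against 65.7, 171 and 279 in the WT libraries. That was 0.973% to 1.88% of the gene's reads in G643W libraries and 0.177% to 0.809% in WT libraries. The protein-coding share of TPM overlapped at 67.7, 67.9 and 57.2% in the G643W libraries, against 61.5, 70.9 and 65.5% in the WT libraries.

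Srsf5 had small shares that also lay apart. Of the TPM of this SR gene its only NMD transcript held 4.47, 5.02 and 3.37% in the G643W libraries, against 2.35, 0.499 and 1.62% in the WT libraries. The retained-intron transcript Srsf5-207 held 2.03, 2.81 and 2.81% in the G643W libraries, against 1.10, 0.553 and 0.495% in the WT libraries, again without overlap. Srsf5-207 was chosen for the lowest transcript p among the 10 tested transcripts of the gene, so its separation is not a separate result. U2af2 NMD transcripts held 21.9, 22.8 and 23.8% in the G643W libraries, against 19.5, 17.6 and 20.8% in the WT libraries. The groups of U2af2 were apart by little more than the spread inside them, and its edgeR adjusted p for class use was 1.00.

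Retained-intron shares did not overlap for 7 of 29 members, with 5 higher in G643W libraries (Srsf1, Prpf6, Prpf19, Hnrnpm and Ddx41), where 9.43% of 6341 genes were, and 2 lower (Snrnp200 and Prpf3), where 4.92% were (14.4% in either direction). Protein-coding shares lay lower without overlap for 4 of the 33 members tested for class use (Srsf4, Prpf6, Hnrnpm and Ddx41), where 10.6% of 8043 genes did, and higher for 0, where 5.38% did (16% in either direction). Snrnp200 had the largest difference in mean retained-intron share among these genes, with 21.1, 26.5 and 17.1% in the G643W libraries, against 48.1, 38.5 and 29.2% in the WT libraries. Most of it lay on Snrnp200-202, at 11.1, 15.6 and 9.10% in the G643W libraries, against 24.4, 26.1 and 17.2% in the WT libraries. Prpf3, a U4/U6 protein, averaged 15.1 ± 0.966% in G643W libraries and 22.6 ± 5.68% in WT libraries (SD, 3 each), and its highest G643W library all but met its lowest WT library. Ddx41 had 24.1, 23.8 and 25.7% in the G643W libraries, against 21.3, 16.8 and 18.9% in the WT libraries. Srsf1 had 49.1, 48.6 and 52.7% in the G643W libraries, against 45.8, 46.01 and 46.2% in the WT libraries. Hnrnpm had 5.997, 6.32 and 6.72% in the G643W libraries, against 4.95, 4.28 and 5.23% in the WT libraries, a small share that was higher in each G643W library. None of these genes passed the class-use test.

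The other members with the lowest p for use showed small or overlapping differences. Luc7l2 transcripts of the class of other non-coding forms held 5.25, 3.60 and 2.97% in the G643W libraries, against 1.12, 1.56 and 3.07% in the WT libraries, and WT library 3 lay within the G643W range. The U2af1 transcripts U2af1-201 and U2af1-202 are both 907 bases long, and U2af1-202 held 10.1, 12.9 and 11.1% in the G643W libraries, against 12.1, 19.5 and 15.2% in the WT libraries. For Srsf10 the leading transcript, Srsf10-201, was listed at 0 in 3 of 6 libraries and held 0, 0 and 0.394% in the G643W libraries, against 4.47, 0 and 0.711% in the WT libraries. Rnps1-202, the main form of Rnps1, held 69.4, 69.6 and 73.2% in the G643W libraries, against 76.8, 80.02 and 74.4% in the WT libraries, lower in every G643W library. Prpf4-202, the non-coding form of Prpf4, held 16.9, 23.1 and 14.4% in the G643W libraries, against 14.7, 12.5 and 8.28% in the WT libraries.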

How the data were processed

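RNA was sequenced from 6 libraries of sorted blasts with a TruSeq V2 kit, per the labels' protocols. The authors deposited 1 Salmon table per library, holding estimated counts of reads per transcript and TPM, per the file headers. Salmon 0.12.0, bcl2fastq and the builds mm10 and GRCm38.p6 are named in the submitters' processing notes, while no source used here gives the Salmon options, the index or the use of strand. Salmon divides reads that match several transcripts by a model, so values of short transcripts and of near-identical copies are estimates. Without strand, reads of a gene and an antisense partner cannot be told apart.

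Of 136288 transcripts, 136176 were found in GENCODE M21 (GRCm38), which gave 53458 genes, and the remaining 112 carried up to 0.0365% of the reads in a library. Of 341 transcripts of the members, 332 had the annotated length. The listed symbol Nhp2l1, an older name, was not matched. Coordinates count from 1. Counts were rounded, passed through filterByExpr with a minimum count of 10, given TMM factors and compared in edgeR 4.0.16 in R 4.3.3, with G643W against WT and no covariate. Transcript and class usage was tested with diffSpliceDGE. The biological coefficient of variation, estimated as 1 common value for all genes tested, was 52.8%. Alternatives used DESeq2 1.42.0 and limma 3.58.1 on log2(TPM + 1) or log2(TPM + 0.1). A copy was a transcript of another gene that matched by 95% or more over 50% or more of the shorter transcript, on the same strand, searched with the transcript of most reads. The gene-level and class-usage tests were tested on simulated data.

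The members and lists were chosen with earlier results of these data known. Members are described with the value in every library where they were among up to 2 per direction with the lowest p in their role group, the 3 with the highest TPM, the 6 with the lowest p for transcript usage or the 4 for class usage, and other spliceosome genes where they had the lowest p of their list and direction. Gm9825, Mbnl3 and the transcripts whose sequences are shown were chosen after their values were seen. The labels do not say that replicate numbers pair the libraries, and the main comparison did not use them as pairs.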

Additional observations from a re-analysis of the deposited data

How the results depend on the processing

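No alternative called any of the 37 splicing factor genes or of the other spliceosome genes at gene level, and the lowest adjusted p of a member in any of them was 0.162. The number of members at an unadjusted p under 0.05 was 1 with no scaling factor, with DESeq2 and with the neutrophil marker mean as a covariate, 0 by limma on log2(TPM + 1) and on log2(TPM + 0.1), 3 on protein-coding transcripts alone, and 0 to 2 when 1 library was left out. Called members for transcript usage ranged from 0 to 2 and for class usage from 0 to 1 when 1 library was left out. The same fits called 174 to 319 and 44 to 66 of all genes. Of 378 values for 21 named genes under 18 alternatives, 368 kept their direction and side of the threshold and 10 reversed, none of which had been called. With 1 library left out, Hnrnpa1 ranged from -0.40 (without G643W library 1) to 0.315, Srsf4 from -0.040 (without WT library 1) to 0.314, Rbm25 from -0.0099 (without WT library 1) to 0.308 and Hnrnpa2b1 from -0.266 to 0.058 (without WT library 2). Hnrnpa1 was -0.032 by limma on log2(TPM + 1) and -0.033 on log2(TPM + 0.1). Srsf4 was -0.036 and Luc7l2 -0.0059 when neutrophil markers were the covariate. The cause was not tested. The number of genes called over all genes moved more: 25 in the main comparison, 16 with no scaling factor, 104 with no filter, 10 with length-scaled counts, 384 by DESeq2, 43 by limma on log2(TPM + 0.1), 2 on protein-coding transcripts alone, 0 to 16 with 1 library left out. Gm9825 stayed positive in 15 of 15 alternatives, with an adjusted p under 0.05 in 10 of them and between 1.31e-20 and 0.213.

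With the replicate number as a block, 1 member had an unadjusted p under 0.05, no gene at all was called (0) and Hnrnpa1 went to -0.10. Deviations of same-numbered libraries had correlations of 0.11, -0.16 and 0.18, and those of other pairs ran from -0.28 to 0.23. With 3 libraries per genotype these values cannot settle whether the numbers pair libraries, which the labels do not say. Summing members with their copies and counting protein-coding transcripts alone were chosen after seeing the data. The Sf3b1 decay share rests on 65.7 to 726 estimated reads of Sf3b1-208 per library.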
